A study of Homo sapiens with 6 samples.

Results

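The 46 genes described here encode the machinery that builds autophagosomes, the TFEB family of transcription factors, and proteins of the lysosome. They were chosen by name: every row of the deposited expression table whose gene name stood on the list was taken, and all 46 were found among the 30676 genes of the table. They were kept as 30 autophagosome genes, 3 TFEB-family factors and 13 lysosomal genes. RNA was sequenced from cells labelled HCT116, an established human colorectal cancer line, with a wild-type genotype label. In 3 libraries the cells had received GIA, which the series title calls a genistein isoflavonoid alkaloid, at 10 µM for 24 h at 1% oxygen. In the other 3 libraries they had received the vehicle DMSO at 0.1% for 24 h, also at 1% oxygen. The labels do not give the DMSO content of the GIA cultures. Both groups were hypoxic, so no value here compares hypoxia with normal oxygen. Nothing in the labels says that replicate libraries were grown as separate cultures. The p-values therefore cover only the spread among these samples, part or all of which may be technical. GIA library 2 stood apart from the other 5 libraries over the whole table. With counts divided by 4, its differences from them gave a chi-square per degree of freedom of 5.88 to 9.53, against 2.74 to 4.25 between libraries other than it.

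Autophagy encloses cytoplasm in a double membrane and delivers it to lysosomes, where acid hydrolases break it down. The ULK1 complex starts the process, a PI3-kinase complex marks the forming membrane with PI3P, and a pair of ubiquitin-like conjugation systems attach ATG8-family proteins to it. TFEB, TFE3 and MITF are basic helix-loop-helix factors that bind CACGTG-type sequences in promoters of many lysosomal genes and some autophagy genes. Their activity is set largely by phosphorylation and entry into the nucleus, and autophagic flux by protein steps. RNA levels measure neither.

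No gene of the set passed the test between GIA and DMSO libraries. All 45 genes that could be tested lay within a narrow range, with 95% intervals inside 1.5-fold in either direction. Of the 46, MAP1LC3A was too low to test. The log2 fold changes of GIA over DMSO ran between -0.15 for TFEB and 0.18 for ULK1, the kinase that starts autophagy. Of the 45, 23 were above 0 (against 50.2% of all genes tested) and 22 below 0, and their median was 0.00046, against 0.00038 over all 13721 genes tested. By the quasi-likelihood test of edgeR, adjusted over the whole table after Benjamini-Hochberg, 0 of the 45 had an adjusted p under 0.05, and the smallest adjusted p was 0.875. The same test called 0 of all 13721 genes (0.0%). At an unadjusted p under 0.05, edgeR counted 0 of the 45 (background 4.59%), limma 0 (background 4.88%) and DESeq2 1, which was ULK1 (background 4.74%). After adjustment limma and DESeq2 also called 0 of the 45. In bulk RNA a change in the share of cells expressing a gene and a change in RNA per cell cannot be told apart. The widest interval of the set belonged to ULK1 and reached 1.30-fold. Without GIA library 2, edgeR also called 0 of the 45 after adjustment, and the widest interval reached 1.32-fold. Intervals inside 1.5-fold were the rule in the whole table too, at 83.0% of genes tested, and 40 of the 45 lay inside 1.25-fold, against 65.7%. The genes were also more abundant than most, with a median of 9.75 FPKM (a level per kilobase of gene and per library size, which can be compared between genes), against 5.22 FPKM over all genes tested.

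Library totals were 64804849 to 67835059 estimated counts in the GIA libraries and 55725249 to 63542466 in the DMSO libraries. The labelled identity was checked against marker genes. The keratins KRT8 (134 to 151 FPKM), KRT18 (219 to 274 FPKM) and KRT19 (26.2 to 29.9 FPKM) were abundant in every library. EPCAM did not exceed 0.335 FPKM and CDH1, which encodes E-cadherin, did not exceed 0.0490 FPKM, although both are known to be expressed in HCT116. VIL1 did not exceed 0.0122 FPKM, and 3 of the 7 epithelial markers averaged at least 1 FPKM. Of the 4 fibroblast markers in the table, DCN (at least 11.2 FPKM), PDGFRB (3.77 to 5.38 FPKM) and COL1A1 (2.23 to 3.17 FPKM) were present. COL3A1 was at most 0.00766 FPKM. Of the leukocyte markers, PTPRC, LYZ and CSF1R were at most 0.131 FPKM, while CD68, a lysosomal glycoprotein not limited to myeloid cells, was at 16.97 to 24.6 FPKM. The endothelial markers summed to at most 0.188 FPKM. Among genes looked at after these values were seen, VIM was at 147 to 160 FPKM and KRT7 at 211 to 256 FPKM, while LGR5, AXIN2 and KRT20 did not exceed 0.0787 FPKM. These values go against the label, and the libraries are called here those labelled HCT116.

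The 3 TFEB-family factors recognise CACGTG, so the promoters of the set were read for it. RefSeq promoters of GRCh38.p14, 250 bases before to 50 after each start, matched 39 of the 46 genes, with 47 promoters. A gene of the set was counted once if any of its promoters held the letters. All 35116 promoters were counted singly, so the shares of the set and of all promoters differ in unit. CACGTG reads the same on both strands, and a search for it also finds every copy of the longer TCACGTGA. It stood in promoters of 5 of the 9 matched lysosomal genes (LAMP1, MCOLN1, CTSA, CTSD and NEU1), of 2 of the 27 matched autophagosome genes (ATG3 and ATG14) and of 0 of the 3 TFEB-family genes, against 2548 of all 35116 promoters (7.26%). LAMP1, the lysosomal membrane gene of the set with the most RNA, held 6 copies. The 1 promoter of the 35116 with at least 6 is that of LAMP1 itself, so this count gives no background. At least 2 copies stood in 233 promoters (0.664%) and at least 3 in 33 (0.094%). TCACGTGA stood in promoters of LAMP1, MCOLN1, CTSA and ATG3, against 344 of all promoters (0.98%). The stretches around the matches that end before the start are shown so that the matched letters can be read beside the RNA levels of the genes. CACGTG is in capitals, and each is written 5′ to 3′ on the gene's own strand in GRCh38.p14. The LAMP1 match that begins at base -1 and the ATG3 match at base 6, counted from the start, are not shown, and that of ATG3 holds its TCACGTGA.
LAMP1, chr13:113297032-113297117, plus strand: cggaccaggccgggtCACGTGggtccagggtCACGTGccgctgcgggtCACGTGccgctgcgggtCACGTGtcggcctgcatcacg
LAMP1, chr13:113297196-113297231, plus strand: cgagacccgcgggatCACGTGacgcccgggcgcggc
MCOLN1, chr19:7522568-7522623, plus strand: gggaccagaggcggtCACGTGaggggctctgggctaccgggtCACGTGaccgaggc
CTSA, chr20:45891278-45891330, plus strand: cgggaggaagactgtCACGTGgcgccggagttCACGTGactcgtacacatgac
CTSD, chr11:1763954-1763989, minus strand: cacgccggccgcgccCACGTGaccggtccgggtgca
NEU1, chr6:31862927-31862962, minus strand: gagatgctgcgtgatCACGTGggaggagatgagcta
ATG14, chr14:55411831-55411866, minus strand: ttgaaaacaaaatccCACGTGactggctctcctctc
ATG3, chr3:112561963-112561995, minus strand: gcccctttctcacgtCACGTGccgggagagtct
A match describes letters in a window and is neither a measured binding site nor a cause of any level. For CTSA and CTSD the deposited gene model begins farther upstream than the RefSeq start used here.

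The genes of the initiation complex stood at levels that differed more between genes than between groups. ULK1 (ENSG00000177169, GRCh38, chr12:131894622-131923150, plus strand) had 13.04, 16.3 and 13.9 FPKM in GIA libraries 1 to 3, against 12.5, 11.6 and 13.8 FPKM in DMSO libraries 1 to 3. The groups overlapped, since GIA library 1 lay below DMSO library 3, and GIA library 2 was the highest. ULK1 averaged 14.4 ± 1.66 FPKM with GIA and 12.7 ± 1.13 FPKM with DMSO (SD, n = 3 each), a log2 fold change of 0.18 with a standard error of 0.083 (edgeR adjusted p = 0.875). Without GIA library 2 the log2 fold change was 0.094. ULK2, the related kinase, was at 0.815, 1.03 and 0.788 FPKM with GIA and 0.918, 0.820 and 0.909 FPKM with DMSO. Its groups overlapped in full, the 3 DMSO libraries lying between the lowest and the highest GIA library. ATG13, the subunit that links ULK1 to the rest of the complex, had 9.62, 9.70 and 9.79 FPKM with GIA and 9.30, 9.39 and 9.35 FPKM with DMSO. Every GIA library lay above every DMSO library, by a log2 fold change of 0.052 (standard error 0.035, edgeR adjusted p = 0.875). RB1CC1, the large scaffold also called FIP200, averaged 9.45 ± 0.552 and 8.94 ± 0.171 FPKM with GIA and DMSO (SD, n = 3 each), and ATG101, which stabilises ATG13, averaged 15.3 ± 0.795 and 16.4 ± 0.432 FPKM. Both sets of values overlapped between the groups. In order of level, ATG101 and ULK1 overlapped in range, as did ATG13 and RB1CC1, and ULK2 lay 10.4-fold below RB1CC1.

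Genes of the PI3-kinase complex gave small differences in both directions. BECN1 (ENSG00000126581, GRCh38, chr17:42810134-42833332, minus strand), the scaffold Beclin 1, had 5.19, 4.96 and 5.23 FPKM with GIA and 5.62, 5.66 and 5.26 FPKM with DMSO. All 3 GIA libraries lay below all 3 DMSO libraries, with GIA library 3 and DMSO library 3 close together. BECN1 averaged 5.13 ± 0.147 FPKM with GIA and 5.51 ± 0.221 FPKM with DMSO (SD, n = 3 each), a log2 fold change of -0.11 with a standard error of 0.055 (edgeR adjusted p = 0.875). Its gene model shares 8948 of 23199 bases with PSME3 on the opposite strand, which was at 44.4 FPKM. The libraries were strand-specific per the labels, but the sources used here do not say whether strand was used in counting. The catalytic subunit PIK3C3 averaged 1.197 FPKM over the 6 libraries, the lowest level of the complex, while its regulatory subunit PIK3R4 averaged 10.3 FPKM, the highest. ATG14 and UVRAG, which direct the complex to autophagosomes or endosomes, averaged 4.45 and 3.40 FPKM, and AMBRA1, a Beclin 1 partner, averaged 4.57 FPKM. The log2 fold changes of these 5 lay between -0.016 for PIK3C3 and 0.042 for ATG14.

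Among PI3P effectors and lipid-transfer proteins, ATG2A alone had groups that did not overlap. ATG2A, which moves lipid into the growing membrane, had 4.98, 4.79 and 4.98 FPKM with GIA and 4.62, 4.55 and 4.58 FPKM with DMSO. All 3 GIA libraries lay above the DMSO libraries, whose own spread was small. It averaged 4.91 ± 0.111 FPKM with GIA and 4.58 ± 0.0352 FPKM with DMSO (SD, n = 3 each), a log2 fold change of 0.099 with a standard error of 0.047 (edgeR adjusted p = 0.875). Its paralog ATG2B averaged 2.31 ± 0.0518 FPKM with GIA and 2.23 ± 0.138 FPKM with DMSO. WIPI1, a PI3P-binding protein, had 2.45, 2.26 and 2.21 FPKM with GIA and 2.55, 1.96 and 2.19 FPKM with DMSO, and DMSO libraries 1 and 2 marked both ends of its range. WIPI2, the relative that recruits ATG16L1, averaged 9.98 ± 0.520 FPKM with GIA and 9.51 ± 0.212 FPKM with DMSO. ATG9A, the lipid scramblase carried on vesicles to the growing membrane, had 15.6, 16.6 and 15.4 FPKM with GIA and 16.7, 14.8 and 16.5 FPKM with DMSO. Its DMSO libraries again spanned the GIA libraries, and the log2 fold change was -0.015 (standard error 0.053).

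The 8 conjugation genes were led by ATG3, the E2-like enzyme that hands ATG8 proteins to lipid, at 2.13 times the level of the next gene, ATG5. ATG3 had 12.7, 12.5 and 12.8 FPKM with GIA and 12.8, 14.1 and 12.8 FPKM with DMSO. The groups were apart by a narrow gap, with 12.79 FPKM in the highest GIA library and 12.81 FPKM in the lowest DMSO library. Its log2 fold change of -0.065 was -0.019 without DMSO library 2. ATG5, which is joined to ATG12 and works with ATG16L1, had 6.17, 5.76 and 6.23 FPKM with GIA and 6.22, 6.10 and 6.03 FPKM with DMSO. GIA library 2 was the lowest and GIA library 3 the highest, so the DMSO libraries lay inside the GIA range. The protease ATG4A, which trims ATG8 proteins, had the lowest log2 fold change of the autophagosome genes at -0.13 (95% interval -0.36 to 0.10), and its relative ATG4B gave -0.011. The E2-like enzyme ATG10 gave 0.12, the E1-like enzyme ATG7 -0.0063, ATG12 -0.0016 and ATG16L1 0.061, and their groups overlapped. The gene model of ATG10, at 1.61 FPKM, shares 2978 of 304275 bases with RPS23 on the opposite strand, which was at 66.6 FPKM.

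GABARAP was the most abundant ATG8-family gene, at 3.32 times the level of the next, MAP1LC3B. Its level overlapped between the groups, while its share of the family did not. GABARAP had 52.5, 57.2 and 53.9 FPKM with GIA and 60.0, 57.4 and 55.2 FPKM with DMSO. It averaged 54.6 ± 2.43 FPKM with GIA and 57.5 ± 2.37 FPKM with DMSO (SD, n = 3 each). The log2 fold change was -0.079 with a standard error of 0.045 (edgeR adjusted p = 0.875). MAP1LC3B, the gene of the common autophagosome marker LC3B, had 17.1, 17.02 and 17.1 FPKM with GIA and 17.1, 16.6 and 16.4 FPKM with DMSO. Its libraries overlapped at the top, and the log2 fold change was 0.033 (95% interval -0.048 to 0.11). GABARAPL1, a relative of GABARAP, had 15.3, 19.5 and 17.2 FPKM with GIA and 16.7, 15.7 and 14.8 FPKM with DMSO. GIA library 2 stood highest and GIA library 1 lay among the DMSO libraries. The log2 fold change of GABARAPL1 was 0.14 (standard error 0.081), and 0.049 without GIA library 2. GABARAPL2 had 14.9, 14.97 and 14.9 FPKM with GIA and 14.9, 14.2 and 14.7 FPKM with DMSO. Only DMSO library 2 stood away from the rest. MAP1LC3A was at 0.0839 FPKM in GIA library 1 and listed at 0 in the other 5 libraries. The near-identical copies MAP1LC3B2 (0.577 to 0.765 FPKM) and GABARAPL3 (at most 0.0353 FPKM) could share reads with their relatives, and the sources used here do not say how such reads were divided.

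As a share of the summed FPKM of the 5 ATG8 genes, GABARAP made up 52.6, 52.6 and 52.3% in GIA libraries and 55.1, 55.3 and 54.6% in DMSO libraries. The groups did not overlap, and the shares averaged 52.5 ± 0.187% with GIA and 55.0 ± 0.371% with DMSO (SD, n = 3 each), a difference of -2.53 percentage points. It lay between -2.74 and -2.38 points when any 1 library was left out. The two-sided exact permutation test gave p = 0.1, the smallest value that 3 against 3 libraries allow, and 0.56 after Benjamini-Hochberg adjustment over the 14 shares and ratios computed. These 14 were chosen after the levels had been seen. The ratio of ULK1 to ULK2 was the other of the 14 without overlap, at 16.005, 15.8 and 17.7 with GIA and 13.6, 14.1 and 15.2 with DMSO. It averaged 16.5 ± 1.03 with GIA and 14.3 ± 0.815 with DMSO (SD, n = 3 each; exact permutation p = 0.1, adjusted 0.56). The other 12 overlapped between the groups, among them the share of TFE3 in its family, at 62.4 ± 0.783% with GIA and 60.7 ± 0.897% with DMSO. Among single genes, the FPKM of the groups did not overlap for 11.2% of all genes tested.

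**Figure D1:**
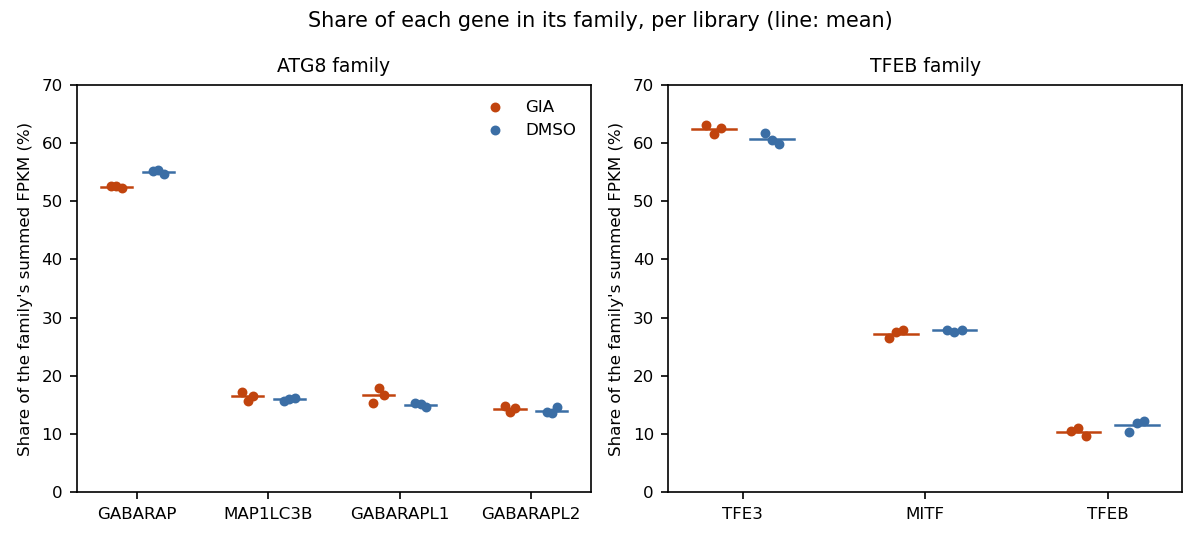
Share of each gene in the summed FPKM of its family (vertical axis, %), per library, with a line at the mean of the 3 libraries; GIA stands left of DMSO. GABARAP lies at 52.3 to 52.6% in the GIA libraries and 54.6 to 55.3% in the DMSO libraries, and the groups overlap for the other genes drawn.

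NBR1, an autophagy receptor for ubiquitin-tagged cargo, averaged 17.04 ± 1.14 FPKM with GIA and 16.8 ± 0.133 FPKM with DMSO (SD, n = 3 each). GIA library 2 was highest at 18.3 FPKM.

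The TFEB-family factors had 1 order of level in all 6 libraries, TFE3 over MITF over TFEB, with no overlap between neighbours over the 6 libraries. TFE3 averaged 2.23 times MITF, and MITF 2.51 times TFEB. TFEB (ENSG00000112561, GRCh38, chr6:41683978-41736259, minus strand) had 3.16, 3.17 and 2.82 FPKM with GIA and 2.97, 3.596 and 3.53 FPKM with DMSO. DMSO library 1 lay below 2 of the GIA libraries, so the groups overlapped. TFEB averaged 3.05 ± 0.198 FPKM with GIA and 3.37 ± 0.344 FPKM with DMSO (SD, n = 3 each), and its log2 fold change of -0.15 (standard error 0.093, edgeR adjusted p = 0.875) was the lowest of the set. TFE3 (ENSG00000068323, GRCh38, chrX:49028726-49043410, minus strand) had 18.8, 17.7 and 18.4 FPKM with GIA and 17.5, 18.3 and 17.3 FPKM with DMSO. MITF had 7.88, 7.93 and 8.16 FPKM with GIA and 7.96, 8.32 and 8.09 FPKM with DMSO. Both overlapped between the groups, with log2 fold changes of 0.045 (standard error 0.042) for TFE3 and -0.026 (standard error 0.039) for MITF.

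**Figure D2:**
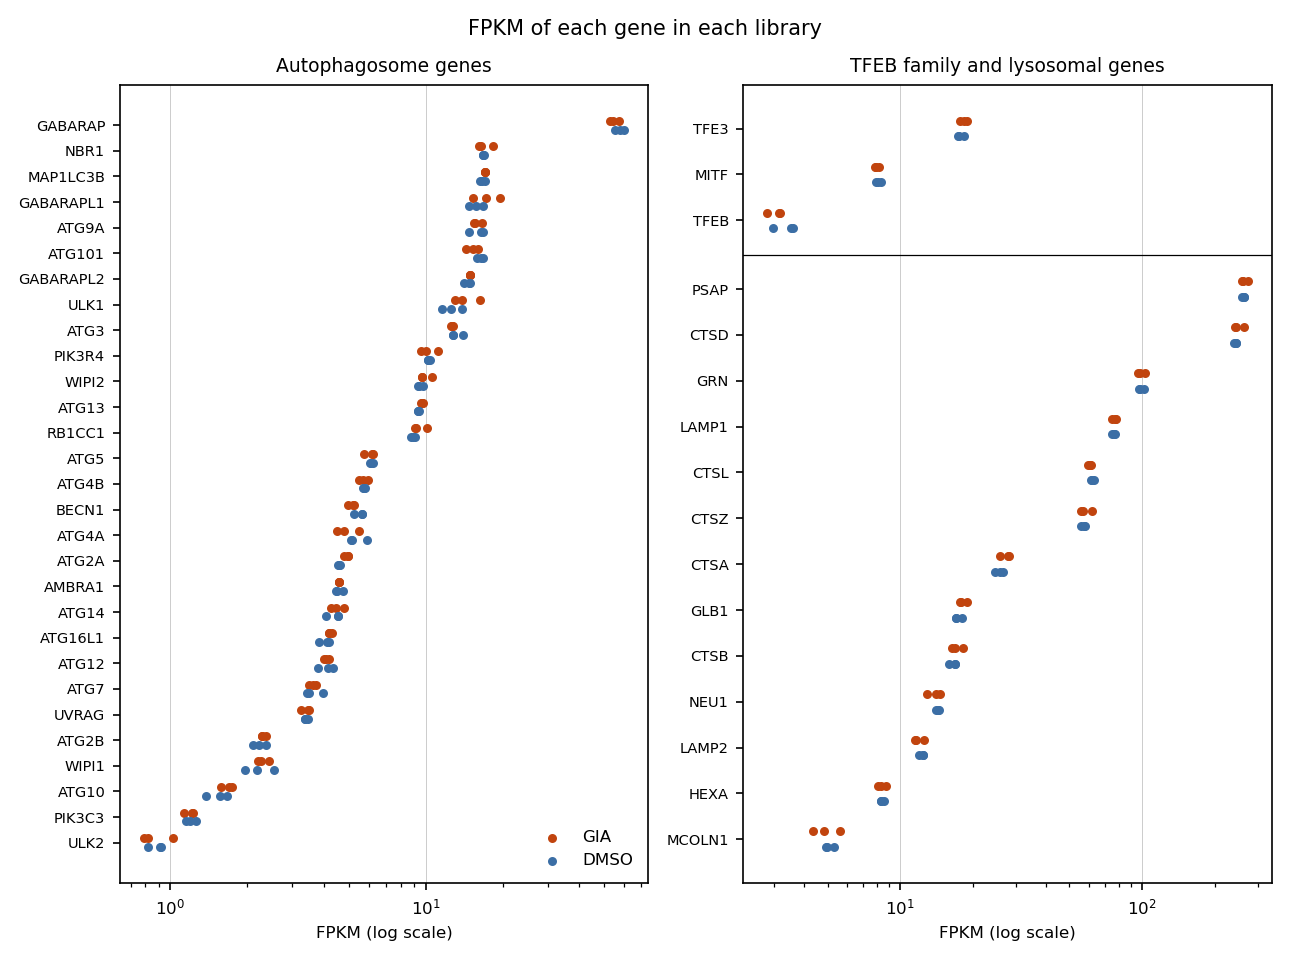
FPKM of each gene (horizontal log axis) in each of the 3 GIA libraries (drawn above) and 3 DMSO libraries (drawn below), ordered by mean level within autophagosome, TFEB-family and lysosomal genes. PSAP and CTSD reach 263 and 246 FPKM on average, while ULK2 averages 0.880 FPKM; MAP1LC3A, listed at 0 in 5 libraries, is not drawn.

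The 13 lysosomal genes were the most abundant class. Their median level was 26.5 FPKM, against 5.72 FPKM for the autophagosome genes, and their log2 fold changes lay between -0.045 (LAMP2) and 0.087 (CTSA) with a median of 0.013. All 13 intervals lay inside 1.25-fold. LAMP1 (ENSG00000185896, GRCh38, chr13:113297239-113323672, plus strand), whose promoter held 6 copies of CACGTG, had 77.4, 75.2 and 78.2 FPKM with GIA and 75.1, 76.4 and 76.9 FPKM with DMSO. The groups overlapped, and the log2 fold change was 0.013 (95% interval -0.056 to 0.083). LAMP2, a related membrane glycoprotein, had 12.5, 11.5 and 11.7 FPKM with GIA and 11.98, 12.4 and 12.4 FPKM with DMSO. Its highest and lowest libraries were both GIA libraries. MCOLN1, the calcium channel TRPML1 of the lysosomal membrane, had 4.85, 5.65 and 4.35 FPKM with GIA and 4.95, 4.99 and 5.32 FPKM with DMSO. It had the widest interval of the lysosomal genes, -0.26 to 0.17 (95%), around a log2 fold change of -0.042. GIA library 2 stood highest and GIA library 3 lowest, so the 3 DMSO libraries lay inside the GIA range.

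Among the cathepsins, the proteases of the lysosome, CTSD was 3.99 times as abundant as the next, CTSL. CTSD (ENSG00000117984, GRCh38, chr11:1752755-1764573, minus strand), an aspartic protease, had 244, 264 and 241 FPKM with GIA and 244, 239 and 243 FPKM with DMSO. GIA library 2 stood above the rest, and the log2 fold change of 0.040 (standard error 0.034) was 0.0034 without it. CTSL, a cysteine protease, had 60.9, 61.6 and 59.95 FPKM with GIA and 61.7, 63.2 and 62.2 FPKM with DMSO. Every GIA library lay below every DMSO library, though GIA library 2 and DMSO library 1 nearly met. CTSL averaged 60.8 ± 0.837 FPKM with GIA and 62.4 ± 0.807 FPKM with DMSO (SD, n = 3 each), a log2 fold change of -0.038 with a standard error of 0.034 (edgeR adjusted p = 0.878). CTSB, another cysteine protease, had 16.3, 18.2 and 16.8 FPKM with GIA and 16.8, 16.9 and 15.9 FPKM with DMSO. CTSA, a carboxypeptidase that also protects the sialidase NEU1, had 25.9, 28.0 and 28.1 FPKM with GIA and 24.5, 26.6 and 25.9 FPKM with DMSO. Both overlapped between the groups, and CTSA had the largest log2 fold change of the lysosomal genes at 0.087 (standard error 0.045, edgeR adjusted p = 0.875). CTSZ averaged 58.4 ± 3.34 FPKM with GIA and 57.0 ± 1.19 FPKM with DMSO.

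GLB1, a beta-galactosidase, averaged 18.1 ± 0.685 FPKM with GIA and 17.3 ± 0.601 FPKM with DMSO (SD, n = 3 each). HEXA, a hexosaminidase subunit, averaged 8.36 ± 0.306 and 8.40 ± 0.126 FPKM, and NEU1 averaged 13.9 ± 0.915 and 14.3 ± 0.173 FPKM, with GIA and DMSO. PSAP, the precursor of the saposins that help lipid hydrolases, had 262, 274 and 259.5 FPKM with GIA and 262, 259 and 265 FPKM with DMSO. GRN, which encodes progranulin, had 96.1, 103 and 97.9 FPKM with GIA and 98.3, 96.8 and 102 FPKM with DMSO. Both overlapped, GIA library 2 being the highest, and the log2 fold changes were 0.016 for PSAP (standard error 0.027) and -0.0018 for GRN (standard error 0.035).

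Counted over the set, the groups did not overlap in FPKM for 5 of the 45 tested genes, against 11.2% of all genes tested. GIA lay above DMSO for ATG13 and ATG2A (background 5.63%) and below DMSO for BECN1, ATG3 and CTSL (background 5.6%). For 9 of the 13 lysosomal genes (69.2%) the highest of the 6 libraries was GIA library 2, as it was for 10 of the 29 autophagosome genes (34.5%) and for 29.6% of all genes tested. The mean log2 deviation of the lysosomal genes was -0.016, 0.050 and -0.023 in GIA libraries 1 to 3 and -0.010, -0.0044 and 0.0035 in DMSO libraries 1 to 3. GIA library 2, which stood apart over the whole table too, was the highest, and the other 2 GIA libraries lay below all 3 DMSO libraries. In the same library the fibroblast markers summed to 24.6 FPKM, the highest of the 6 (GIA 17.7 to 24.6 FPKM, DMSO 17.6 to 18.9 FPKM). The epithelial markers summed there to 382 FPKM, the lowest of the 6 (GIA 382 to 452 FPKM, DMSO 435 to 441 FPKM). That sum was mostly KRT8 (134 FPKM) and KRT18 (219 FPKM), each lowest in GIA library 2. KRT19 did not follow, at 27.7 FPKM in that library and 26.2 to 29.9 FPKM with DMSO. The leukocyte markers, nearly all of it CD68, summed to 17.1 to 23.1 FPKM with GIA and 17.9 to 24.7 FPKM with DMSO. The part of these markers in the values of that library was not tested.

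**Figure D3:**
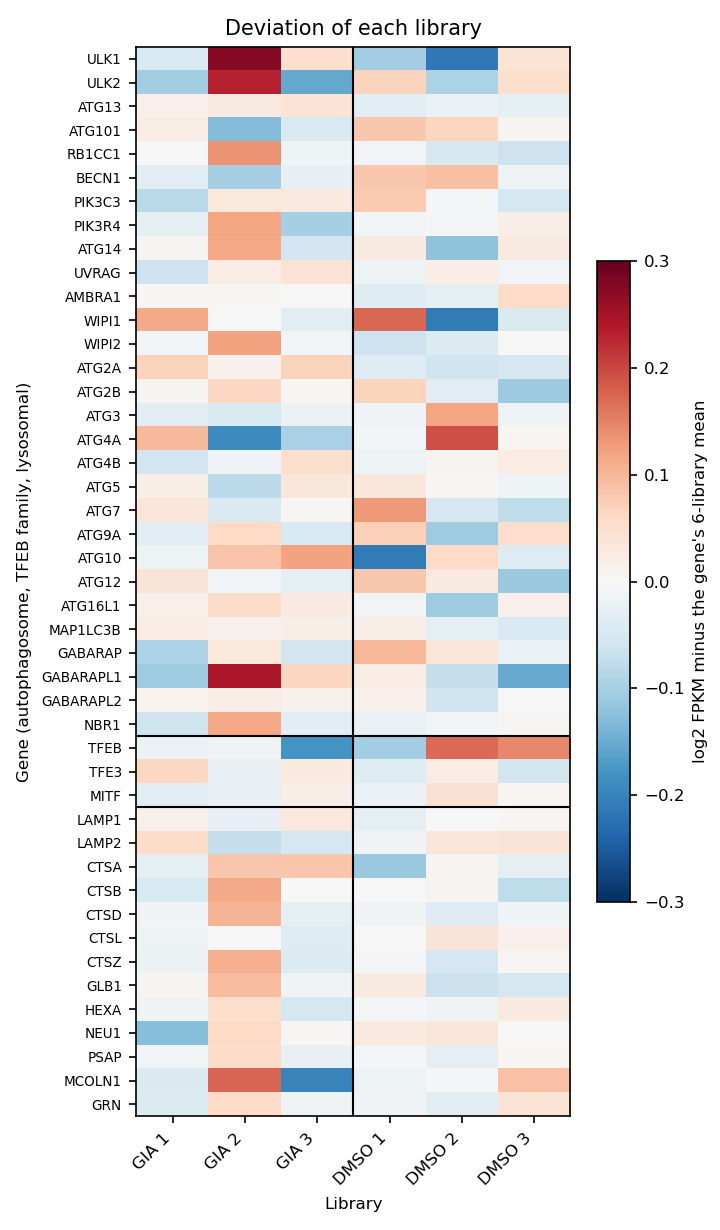
Deviation of log2 FPKM in each library (columns, GIA left of DMSO) from the gene's mean over the 6 libraries (colour), for the 45 tested genes in autophagosome, TFEB-family and lysosomal blocks. The column of GIA library 2 is the highest for 9 of the 13 lysosomal genes, 10 of the 29 autophagosome genes and 0 of the 3 TFEB-family genes. Over all genes tested the share was 29.6%.

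No gene of 4 related lists passed the test. The genes named from each list are the 2 of smallest p in these data, a choice that favours groups lying apart. Of 22 other autophagy genes, all tested, 15 had a log2 fold change above 0 and 7 below 0, with a median of 0.019. With the edgeR test and Benjamini-Hochberg adjustment 0 were called (background 0.0%), and 2 of the 22 had an unadjusted p under 0.05 (background 4.59%). EPG5, a tether of autophagosomes to lysosomes, had 1.62, 1.75 and 1.78 FPKM with GIA and 1.40, 1.54 and 1.48 FPKM with DMSO (log2 fold change 0.22, edgeR adjusted p = 0.875). VMP1, a membrane protein that acts early in autophagosome formation, had 16.6, 17.9 and 17.8 FPKM with GIA and 15.3, 15.9 and 16.9 FPKM with DMSO (0.12, adjusted p = 0.875). The groups were apart for EPG5 and overlapped for VMP1. Of 35 other lysosomal genes, 31 were tested, 17 above and 14 below 0 with a median of 0.021, and edgeR called 0, 2 of the 31 having an unadjusted p under 0.05 (background 4.59%). These were the cathepsin CTSF, at 7.56, 8.55 and 8.62 FPKM with GIA and 7.38, 7.12 and 7.26 FPKM with DMSO, and the ceramidase ASAH1, at 3.80, 3.999 and 3.47 FPKM with GIA and 4.19, 4.11 and 4.04 FPKM with DMSO. All GIA libraries lay above the DMSO libraries for CTSF and below them for ASAH1 (log2 fold changes 0.18 and -0.13, edgeR adjusted p = 0.875 for both).

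Of 23 subunits of the V-ATPase, the pump that acidifies lysosomes, 19 were tested, 9 above and 10 below 0 with a median of -0.010, and edgeR called 0 after adjustment. The 2 of 19 with an unadjusted p under 0.05 (background 4.59%) were ATP6V1G1, at 40.9, 42.4 and 39.6 FPKM with GIA and 44.8, 44.1 and 43.9 FPKM with DMSO, and ATP6V1B2, at 9.94, 9.04 and 9.22 FPKM with GIA and 10.2, 10.2 and 10.0 FPKM with DMSO. For both, every GIA library lay below every DMSO library (log2 fold change -0.11 for each, edgeR adjusted p = 0.875). Of 12 genes that control TFEB through mTORC1 at the lysosome, 3 were above and 9 below 0 with a median of -0.052, and edgeR called 0 after adjustment, 1 of the 12 having an unadjusted p under 0.05 (background 4.59%). That gene was LAMTOR1, the subunit that anchors the Ragulator complex to the lysosome, at 29.2, 29.98 and 29.1 FPKM with GIA and 30.5, 31.0 and 31.8 FPKM with DMSO (log2 fold change -0.083, edgeR adjusted p = 0.875). Its partner LAMTOR2 overlapped between the groups, at 16.2, 18.5 and 16.7 FPKM with GIA and 15.5, 15.5 and 17.3 FPKM with DMSO. Every GIA library lay above every DMSO library for 3 of 22 other autophagy genes and 3 of 31 other lysosomal genes (background 5.63%). For the 19 V-ATPase and 12 TFEB-control genes that count was 0. Every GIA library lay below every DMSO library for 0, 2, 2 and 2 genes of these 4 lists, in that order (background 5.6%). Of the pathways annotated in the authors' table, 112 tested genes of KEGG autophagy (59 above and 53 below 0) and 106 of KEGG lysosome (55 above and 51 below 0) also held 0 calls by edgeR, with 4 of the 112 and 3 of the 106 at an unadjusted p under 0.05 (background 4.59%). These pathways hold 32 and 12 of the 46 genes.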

How the data were processed

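RNA-seq libraries of the GIA and DMSO groups, 3 of each, stood in 1 deposited table. Per the labels' protocols, TRIzol RNA went into a strand-specific SMARTER kit. The builds GRCh38 and hg38 stand in the submitters' processing notes, with HISAT2 2.2.1, StringTie 2.1.6, cutadapt, FastQC 0.10.1 and DESeq2 1.22.2, and without the role of any. Per the file headers the authors deposited for each library an estimated count and an FPKM per gene. The counts were whole as deposited, and low ones piled up at multiples of 4, so that 1 fragment may be worth about 4 counts. The method of counting is not stated in the sources used here.

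Genes with a mean of at least 0.5 FPKM (13721 of 30676) were fitted with edgeR 4.0.16 (glmQLFit and glmQLFTest, TMM scaling) in R 4.3.3, two-sided, with Benjamini-Hochberg adjustment over all of them and a threshold of 0.05. The 95% intervals come from that fit. Levels between genes were compared in FPKM. The fit was also run on simulated data with 200 changed genes, and no outcome of that run is used here. Simulated counts gave all genes a common biological coefficient of variation of 11.0% and made no library stand apart. They therefore do not test the fit for a library such as GIA library 2. Alternatives used DESeq2 1.42.0, limma 3.58.1 on log2(FPKM + pseudocount), other filters and scalings, a replicate block, and each library left out. With counts divided by 4, any 2 libraries differed by more than counting noise, with a chi-square per degree of freedom of at least 2.74.

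The genes and lists were chosen with earlier results of these data known. Values per library were given for fixed members of each role, for members whose groups did not overlap, for the largest fold change of each class, and for the 2 genes of smallest p in each further list. Gene models of 12 members overlap another model of at least 1 FPKM. The other model stood higher than the member for BECN1 (PSME3), AMBRA1 (AC024293, 39.5 FPKM), ATG7 (VGLL4, 6.47 FPKM), ATG10 (RPS23, 66.6 FPKM) and MCOLN1 (PNPLA6, 19.7 FPKM). Promoter sequences are RefSeq's, of GRCh38.p14.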

Additional observations from a re-analysis of the deposited data

How the results depend on the processing

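No member of the set was called under any alternative run, and the smallest adjusted p among them was 0.469, without GIA library 1. Over all genes tested edgeR called 0, limma 0 and DESeq2 0, a replicate block called 3 (462 at an unadjusted p under 0.05), and leaving out 1 library gave between 0 and 5 calls. The replicate numbers were not taken to pair the libraries, since same-numbered libraries correlated at 0.0334 to 0.0966, although 5 of the 6 libraries correlated best with their own number. Leaving out 1 library moved the median log2 fold change between -0.0046 and 0.040 for autophagosome genes, between -0.044 and -0.0066 for TFEB-family factors and between -0.011 (without GIA library 2) and 0.027 for lysosomal genes. Apart from leaving out libraries, 419 of 437 recomputed values kept their direction and their side of the threshold, and 18 values of 6 genes close to 0 changed sign. UVRAG gave 0.0021 with library totals as scaling and 0.0016, 0.0018 and 0.0015 with limma at pseudocounts of 0.5, 0.1 and 1. ATG12 gave 0.0012 with library totals, 0.0018, 0.0021 and 0.0015 with the same limma settings and 0.00022 with counts divided by 4, a setting chosen after seeing the data. GRN gave 0.0010 with library totals, 0.0075 with a minimum of 5 FPKM and 0.00028 with each limma setting. AMBRA1 gave -0.00026 with no filter and -0.00094 with counts divided by 4, and with a minimum of 5 FPKM PIK3R4 gave 0.0050 and HEXA 0.00073. Leaving out 1 library changed the sign of 20 genes, and the cause was not tested. Their lowest and highest log2 fold changes were ULK2 -0.14 and 0.055, PIK3C3 -0.047 and 0.020, PIK3R4 -0.063 and 0.039, ATG14 -0.0046 and 0.077, UVRAG -0.025 and 0.028, AMBRA1 -0.016 and 0.029, WIPI1 -0.040 and 0.15, ATG4B -0.044 and 0.011, ATG5 -0.042 and 0.021, ATG7 -0.046 and 0.060, ATG9A -0.068 and 0.018, ATG12 -0.056 and 0.040, NBR1 -0.037 and 0.046, LAMP1 -0.0023 and 0.034, CTSZ -0.011 and 0.059, HEXA -0.032 and 0.013, NEU1 -0.081 and 0.0046, PSAP -0.0036 and 0.027, MCOLN1 -0.14 and 0.039, GRN -0.027 and 0.018. Without GIA library 2, 31 of the 45 genes changed sign or moved by over 1.5 times, against 19 to 24 without each other library. Under each setting that gave intervals, those of the 45 members (32 with a minimum of 5 FPKM) stayed inside 1.5-fold. With no filter MAP1LC3A was fitted as well, and its interval reached 1517-fold.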
